A study of Mus musculus with 6 samples.

Results

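The axon guidance genes of mouse colon tumours were described here: the semaphorins and their plexin and neuropilin receptors, the netrins and their DCC, neogenin and UNC5 receptors, and the slits and their ROBO receptors. Members were picked by gene symbol, with no measured value in the rule, but these families were chosen with earlier results of the same data known. The rule found 51 of the 53700 gene rows of the table: 20 semaphorins, 9 plexins, 2 neuropilins, 4 netrins, 6 netrin receptors, 3 slits, 4 ROBO receptors and 3 antisense transcripts named after Plxna4. RNA was sequenced from 6 bulk colon tumours, 3 from each of 2 kinds of mouse. The APC-WT mice kept endogenous Tcf7l2 expression, had been fed doxycycline for 10 days and were cachectic, that is, wasting under their tumours. Doxycycline represses Tcf7l2, which encodes a transcription factor of Wnt signalling, in APC-KI mice, and does so in the whole body and not in tumour cells alone. The APC-KI mice had been fed doxycycline for 6 weeks and had recovered. All 6 mice received 100 mg/kg doxycycline in their food pellets, so doxycycline itself was shared, while genotype, time on doxycycline and cachexia cannot be told apart. The age and sex of the animals, the alleles behind the names APC-WT and APC-KI and whether tumours were pooled were not stated in the labels, and each library was taken as 1 mouse.

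Guidance cues are secreted or membrane-bound proteins that steer growing axons, and they also act on epithelium, vessels, muscle and immune cells. Semaphorins signal through plexins, and the secreted class 3 semaphorins mostly need a neuropilin as a co-receptor. Netrins attract through DCC and neogenin and repel through UNC5 receptors, several of which are also known as dependence receptors that can trigger cell death when no ligand is bound. Slits bind ROBO receptors and are best known as repellents. In the gut these families take part in enteric innervation, vessel patterning and the upkeep of the epithelium.

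The libraries held 51777342 to 63921108 counts. Tcf7l2 stood at 44.1, 43.8 and 35.6 CPM in the APC-WT tumours and at 4.48, 6.90 and 5.34 CPM in the APC-KI tumours, a 7.39-fold lower mean, as the labels say (CPM, counts-per-million, are counts divided by the TMM-scaled library size). The presence of epithelium was checked with 8 epithelial markers, such as Epcam and Krt20, which cannot tell tumour from normal colon. All 8 were detected, and they summed to between 7861 and 11924 CPM in every library. Transcripts of 4 Y-linked genes were present in APC-WT replicate 1 (19164 counts) and replicate 2 (16055 counts) and at 0 elsewhere, so that APC-WT replicate 3 is the single APC-WT library that matches the APC-KI libraries in this respect. The part of this difference in the results below cannot be separated from that of the group with 1 such library.

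Guidance genes changed in both directions. Of the 51 members 48 had enough counts to be tested, and 19 of these passed at an edgeR adjusted p under 0.05, 13 of them higher and 6 lower in APC-KI tumours. That is 39.6% of the tested members, beside 20.1% of all 19127 genes tested. Higher calls made up 27.1% of the members and 12.5% of all genes, and lower calls 12.5% of the members and 7.63% of all genes. The median log2 change, always given as APC-KI over APC-WT, was 0.35 over the members and −0.02 over all genes. The ranges of CPM in both groups were separate for 28 of the 48 members (58.3%) and for 44.5% of all genes. The increases were led by Ntn5, Slit3, Sema3d, Ntn1 and Robo2, and the decreases by Unc5d, Sema3f and Plxnb1. Because bulk tumours were sequenced, fewer cells of a type and less RNA per cell cannot be told apart for any of these genes.

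**Figure D1:**
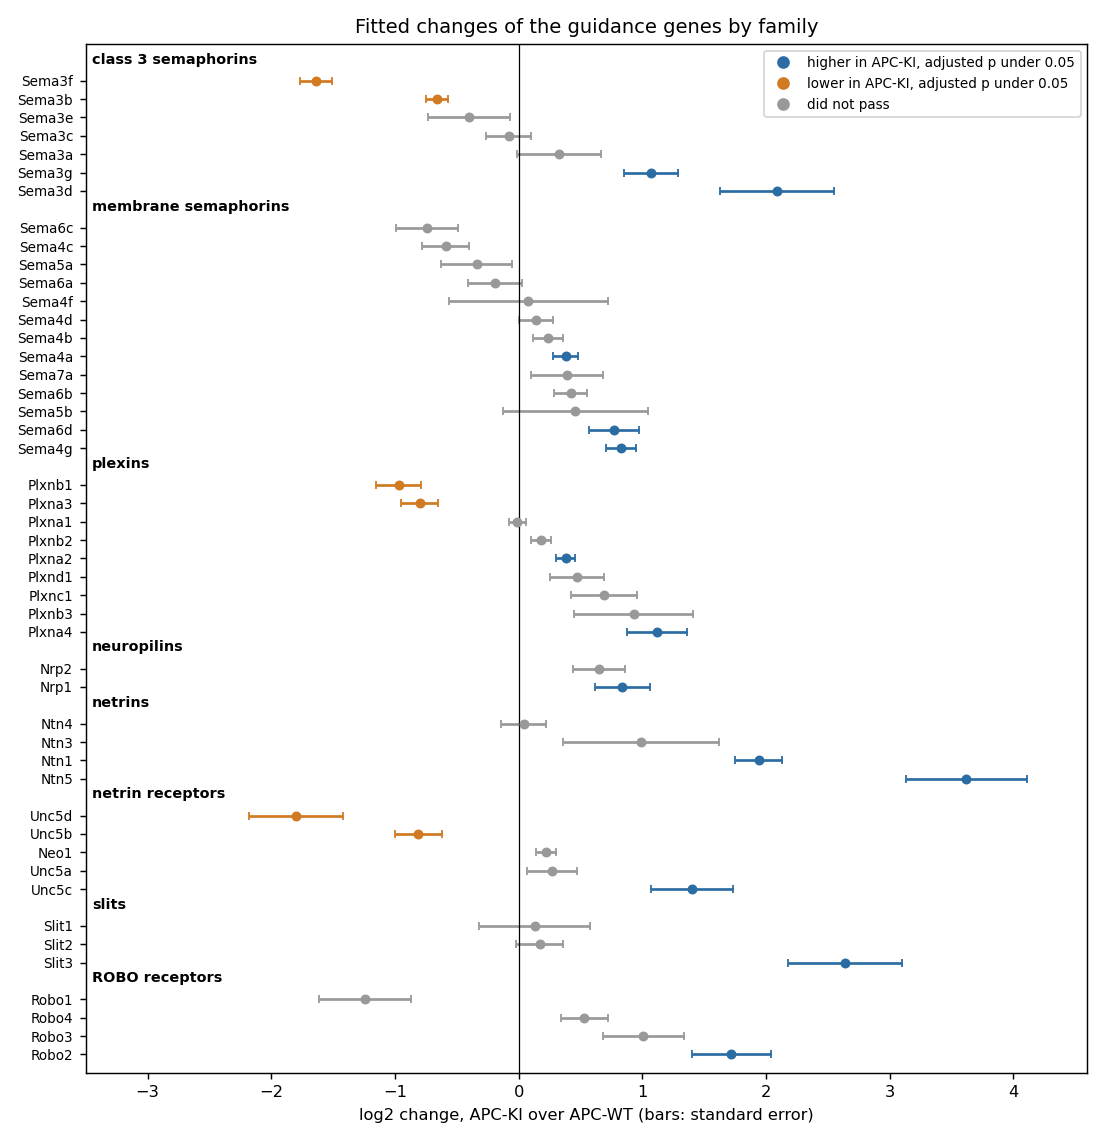
Fitted log2 changes of the tested guidance genes on the horizontal axis (APC-KI over APC-WT, bars are standard errors, 3 libraries a group), listed by family. Blue points are higher and orange points lower in APC-KI at an adjusted p under 0.05. Class 3 semaphorins, plexins and netrin receptors hold calls on both sides of 0, with Ntn5 farthest to the right at 3.62 and Unc5d farthest to the left at −1.80.

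Markers of several cell types that carry guidance receptors moved with the group, in the same direction as Slit3, Robo2, Ntn1, Nrp1, Sema3d and Sema3g. All 10 smooth muscle markers were higher in APC-KI tumours, with a sum of 186 to 468 CPM across APC-WT libraries and 961 to 1587 CPM across APC-KI libraries. Of 9 fibroblast markers 3 were higher, and their sums ranged from 879 to 2412 CPM and from 2790.4 to 3894 CPM. The sums of the endothelial list, 3 of 9 higher, were 204 to 275 CPM and 297 to 379 CPM. In APC-WT, replicate 3 (the only one without Y-linked counts) was highest and replicate 1 lowest in the smooth muscle, fibroblast and endothelial sums. The epithelial, enteric neuron and B and plasma cell sums had that order too, while enteric glia, lymphatic endothelial and neutrophil sums had the reverse. Replicate 3 was also highest and replicate 1 lowest for Slit3, Robo2, Nrp1 and Ntn1, and for Sema4c, whose log2 change was −0.59. Within the APC-KI group the smooth muscle sum and Ntn1 were highest in replicate 3. There the fibroblast and endothelial sums, Slit3 and Nrp1 were highest in replicate 2, and Robo2 in replicate 1. Of 8 enteric neuron markers 3 were higher and the sums overlapped, at 22.2 to 44.9 and 32.9 to 46.8 CPM. The 6 enteric glia markers, 4 of them tested, had 1 higher and 1 lower. Their sums were 7.31 to 21 and 4.90 to 6.16 CPM, while 2 changes were positive and 2 negative, with a median log2 change of 0.61. The 8 epithelial markers had 5 higher and 0 lower, with sums of 7861 to 9051 and 9987 to 11924 CPM. Lymphatic endothelial markers had 1 higher and 1 lower of 4. Their sums were lower in APC-KI (587 to 708 and 239 to 384 CPM), although 3 of the 4 changes were positive, with a median log2 change of 0.88. Such sums follow the most abundant markers of a list. B and plasma cell markers had 4 of 7 higher, T cell markers 4 of 6, macrophage markers 2 of 6 and neutrophil markers 2 of 5, with 0 lower and sums that did not overlap in each, and all 6 mast cell markers were lower. Beside these counts, 12.5% of all genes tested were called higher and 7.63% lower. No marker had 0 counts in a whole group. Per the labels' protocols, tumours were pinched off the muscle layer, and whether muscle carried along differed between libraries was not tested. The part of these cell types in the changes of the guidance genes was not tested.

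**Figure D2:**
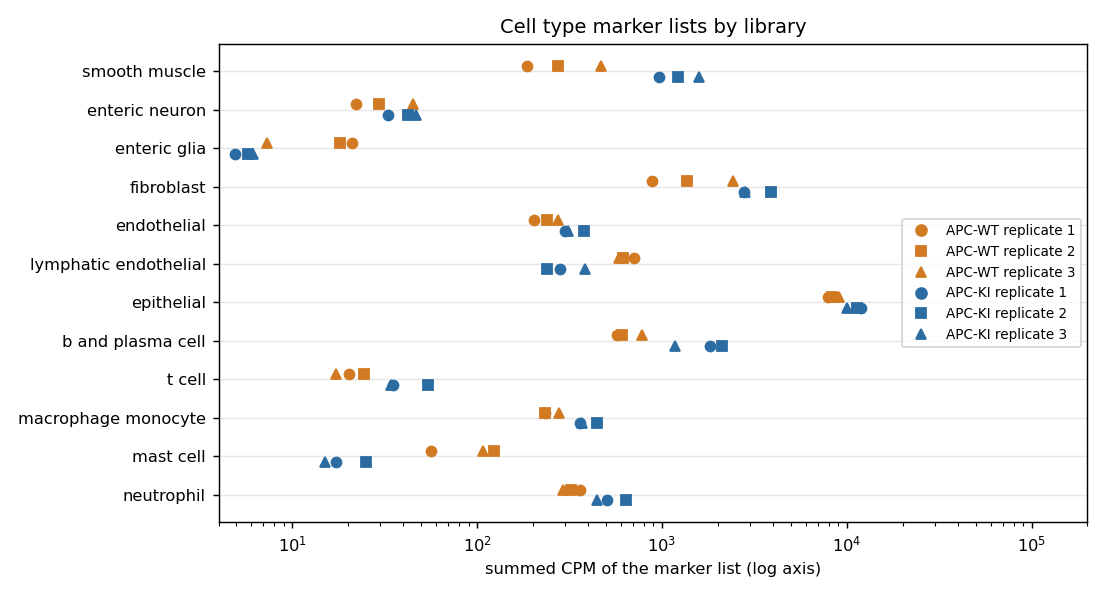
Summed CPM of each cell type marker list on a log axis, 1 point per library, orange for APC-WT and blue for APC-KI, with a marker shape for each replicate. Smooth muscle sums are 186 to 468 CPM across APC-WT libraries and 961 to 1587 CPM in APC-KI, and the mast cell list has the opposite order.

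RefSeq gave promoter windows for 39 members, 5 of the 19 called members being among the rest. The 250 bases before the annotated start are printed for 4 called members, the largest increases (Ntn5 and Slit3) and decreases (Plxnb1 and Unc5b) among those with a single window, so that the control regions of genes that moved in opposite directions can be read side by side. They come from RefSeq on GRCm38.p6, run 5′ to 3′ on the strand of the gene and end at the base before the start. Capitals mark matches on either strand to the GC box GGGCGG, the TATA box TATAAA or the TCF/LEF core in its forms CTTTGAA and CTTTGAT, of which the GC box alone occurs here. No base belongs to more than 1 of these motifs.
Ntn5 (chr7:45683772-45684021, plus strand): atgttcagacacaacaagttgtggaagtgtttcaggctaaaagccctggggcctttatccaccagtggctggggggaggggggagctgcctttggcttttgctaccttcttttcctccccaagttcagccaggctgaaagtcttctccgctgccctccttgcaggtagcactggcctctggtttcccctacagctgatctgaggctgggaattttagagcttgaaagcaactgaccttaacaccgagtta
Slit3 (chr11:35121206-35121455, plus strand): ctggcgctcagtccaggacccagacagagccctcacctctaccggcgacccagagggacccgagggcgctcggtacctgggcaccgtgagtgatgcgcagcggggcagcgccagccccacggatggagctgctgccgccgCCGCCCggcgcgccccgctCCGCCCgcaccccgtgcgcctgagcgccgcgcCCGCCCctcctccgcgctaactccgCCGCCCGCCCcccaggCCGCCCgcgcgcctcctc
Plxnb1 (chr9:109095186-109095435, plus strand): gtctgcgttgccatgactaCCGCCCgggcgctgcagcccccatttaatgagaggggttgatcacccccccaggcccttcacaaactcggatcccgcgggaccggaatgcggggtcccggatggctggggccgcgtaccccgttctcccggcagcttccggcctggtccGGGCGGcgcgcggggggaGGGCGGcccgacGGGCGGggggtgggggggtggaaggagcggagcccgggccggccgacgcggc
Unc5b (chr10:60831582-60831831, minus strand): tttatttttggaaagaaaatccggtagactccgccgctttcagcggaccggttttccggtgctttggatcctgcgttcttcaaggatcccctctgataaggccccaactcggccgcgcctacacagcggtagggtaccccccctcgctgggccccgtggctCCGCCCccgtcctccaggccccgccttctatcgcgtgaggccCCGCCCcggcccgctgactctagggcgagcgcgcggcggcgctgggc
The Slit3 window held 6 GC boxes, 1 pair of them overlapping, in 78.8% G and C bases, and the Plxnb1 window 4 in 75.2%. The Unc5b window held 2 in 66.8%, while the Ntn5 window held 0 in 52.8%. A GC box was present in 35 of the 52 member windows (67.3%) and in 32.7% of all 32851 RefSeq windows of this length, and the median share of G and C was 64.4% beside 52.4%. It occurred in 9 of 17 windows of members called higher and in all 3 windows of members called lower. The TCF/LEF core, the sequence that TCF7L2 and its relatives bind, lay in 2 member windows (3.85%) and in 7.48% of all windows. Both genes that held it, Nrp2 and Sema3e, did not pass the test. Their sites are shown with 16 bases on each side and the core in capitals, its first base lying 146 and 119 bases before the start.
Nrp2 (chr1:62703155-62703193, plus strand): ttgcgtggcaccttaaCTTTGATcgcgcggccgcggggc
Sema3e (chr5:14025141-14025179, plus strand): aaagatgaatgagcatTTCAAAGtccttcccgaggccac
Letters in these windows are a description and do not show binding.

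Class 3 semaphorins, the secreted ligands, split between both directions, with 2 of 7 lower and 2 higher (57.1% called beside 20.1% of all genes). Sema3f (ENSMUSG00000034684), which repels axons and vessels through neuropilin 2, stood at 152, 150.0 and 139 CPM across APC-WT libraries and at 42.7, 42.5 and 56.8 CPM across APC-KI libraries. It was 3.11-fold lower, with a log2 change of −1.64 ± 0.13 (SE, edgeR adjusted p = 0.00253). The lowest APC-WT library lay far above the highest APC-KI library. Sema3b (ENSMUSG00000057969), which binds both neuropilins, stood at 88.7, 76.3 and 77.8 CPM across APC-WT libraries and at 51.3, 53.9 and 48.1 CPM across APC-KI libraries, again without overlap, and was 1.58-fold lower (edgeR adjusted p = 0.00696). The 2 that rose were rarer. Sema3g (ENSMUSG00000021904), known from vessel walls, was 2.10-fold higher, at 3.87, 3.87 and 5.11 CPM across APC-WT libraries and 7.89, 11.3 and 7.79 CPM across APC-KI libraries (edgeR adjusted p = 0.0221). Sema3d (ENSMUSG00000040254), which guides axons and endothelial cells, was 4.25-fold higher, at 0.405, 1.18 and 1.18 CPM against 2.92, 3.52 and 5.25 CPM (edgeR adjusted p = 0.0253). Sema3c (ENSMUSG00000028780), the most abundant secreted semaphorin per kb of exon, stood at 276, 274 and 215 CPM across APC-WT libraries and 249.7, 184 and 289.8 CPM across APC-KI libraries, with overlapping groups and a log2 change of −0.08 ± 0.18. Sema3a and Sema3e, the latter a direct ligand of plexin D1, also overlapped, at log2 changes of 0.33 and −0.40. For Sema3e APC-WT replicate 3 stood apart at 57.6 CPM beside 24.1 to 32.7 CPM in the other 5 libraries.

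Levels of different genes were compared as CPM per kb of exon, with exon lengths from GENCODE M21. On that scale Sema3f made up 32.1, 32.9 and 33.0% of all class 3 semaphorin RNA in the APC-WT tumours and 13.8, 15.6 and 16% in the APC-KI tumours. The Sema3c share was 42.4, 43.8 and 37.0% against 58.9, 49.2 and 59.6%. The Sema3b share was 19.5 ± 1.17% and 18.1 ± 3.38% (SD, n = 3 each), with overlapping groups. The ratio of Sema3c to Sema3f per kb was 1.32, 1.33 and 1.12 in APC-WT and 4.26, 3.16 and 3.72 in APC-KI tumours (exact two-sided permutation p = 0.1, the smallest that 3 against 3 allows). In all 6 such ratios were compared over the families, those of Ntn4 (ENSMUSG00000020019) to Ntn1 (ENSMUSG00000020902) and of Plxnb2 (ENSMUSG00000036606) to Plxnb1 (ENSMUSG00000053646) included. Each of the 6 had this p, also after Benjamini-Hochberg adjustment. Every ratio holds a gene called in these same libraries, so the separation of its groups is no further support for the calls.

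Among the 13 membrane-bound semaphorins 3 rose and 0 passed as lower, 23.1% called and so close to the 20.1% of all genes. By unadjusted p 3 more were under 0.05 in the same edgeR test, Sema6b higher and Sema4c and Sema6c lower. The share of all genes under that unadjusted p was not counted, so these 3 cannot be set against a background. All 3 of them passed with DESeq2, which called 30.1% of all genes beside 20.1% in edgeR. Sema4g (ENSMUSG00000025207), a transmembrane semaphorin, was 1.78-fold higher, at 133, 150 and 121 CPM across APC-WT libraries and 245, 205 and 267 CPM across APC-KI libraries (edgeR adjusted p = 0.00936). Sema6d (ENSMUSG00000027200), a ligand of A-type plexins, stood at 35.4, 44.8 and 40.2 CPM and at 78.6, 78.5 and 48.9 CPM and was 1.71-fold higher (edgeR adjusted p = 0.0389). Sema4a (ENSMUSG00000028064), which acts mainly on immune cells, was 1.30-fold higher, at 111, 97.2 and 98.1 CPM against 138, 142 and 119 CPM (edgeR adjusted p = 0.038). In APC-KI replicate 3 Sema6d and Sema4a lay closest to the APC-WT range. Sema7a, anchored by a lipid and read by plexin C1 and integrins, was the most abundant of the membrane-bound class per kb, with a log2 change of 0.39 ± 0.29. Its APC-WT libraries held 86.2, 79.8 and 162 CPM, the last being higher than all 3 APC-KI libraries at 153, 161 and 116 CPM. Sema4c, a ligand of plexin B2, stood at 70.6, 89.5 and 101 CPM and at 50.1, 51.6 and 72.0 CPM, and its log2 change of −0.59 missed the threshold (edgeR adjusted p = 0.0667). The remaining 8, Sema4b, Sema4d, Sema4f, Sema5a, Sema5b, Sema6a, Sema6b and Sema6c, had log2 changes between −0.74 and 0.46 and did not pass. Sema5b was close to the limit of detection, at 0.105 to 0.327 CPM in the 6 libraries.

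Plexins, the signalling receptors of semaphorins, changed in opposite directions, with 2 of 9 lower and 2 higher (44.4% called beside 20.1% of all genes). Plxnb1, the receptor of Sema4d, stood at 232, 227 and 250.1 CPM across APC-WT libraries and at 105, 100.5 and 157 CPM across APC-KI libraries. It was 1.96-fold lower, with a log2 change of −0.97 ± 0.18 (edgeR adjusted p = 0.0155), and APC-KI replicate 3 held more of it than the other two. Plxna3 (ENSMUSG00000031398), which together with neuropilin 2 receives Sema3f, was 1.74-fold lower, at 20.2, 22.1 and 19.9 CPM against 10.3, 11.1 and 14.3 CPM (edgeR adjusted p = 0.0163). Plxna2 (ENSMUSG00000026640) was 1.30-fold higher, at 86.8, 82.9 and 74.5 CPM against 110.0, 105 and 103 CPM (edgeR adjusted p = 0.0209). The rare Plxna4 (ENSMUSG00000029765), best known from neurons, was 2.17-fold higher at 4.38, 4.28 and 5.18 CPM against 1.75, 1.92 and 2.71 CPM (edgeR adjusted p = 0.0227). None of these 4 genes overlapped between the groups, as was so for 44.5% of all genes tested. Being called in these same libraries, they gain no further support from it. Plxnb2, a receptor of class 4 semaphorins, was the most abundant plexin per kb and stood at 454, 456 and 415 CPM against 492, 542 and 467 CPM, a log2 change of 0.18 ± 0.08 that missed the threshold (edgeR adjusted p = 0.168). Plxna1 differed least, at 126 ± 7.86 and 125 ± 4.83 CPM. Plxnd1, Plxnc1 and Plxnb3 had log2 changes of 0.47, 0.69 and 0.93 and did not pass. Per kb of exon Plxnb1 made up 22.3 ± 1.01% of all plexin RNA in APC-WT and 11.5 ± 3.22% in APC-KI tumours, while the share of Plxnb2 was 51.7 ± 3.02% and 59.1 ± 2.68%. The antisense transcript Plxna4os1 stood below 0.67 CPM in all libraries and its log2 change of 0.61 missed the threshold, while Plxna4os2 and Plxna4os3 had 0 counts in all 6. In M21 the exons of Plxna4os3 and Plxna4 share 110 bases, where reads of both cannot be told apart if strand was not used.

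Of the neuropilins Nrp1 (ENSMUSG00000025810) rose and Nrp2 (ENSMUSG00000025969) did not pass. Nrp1, a co-receptor of class 3 semaphorins and of VEGF, stood at 10.8, 13.1 and 19.7 CPM across APC-WT libraries and at 24.1, 28.7 and 25.2 CPM across APC-KI libraries, 1.79-fold higher (edgeR adjusted p = 0.0421). Nrp2, the more abundant of the pair, stood at 47.3, 40.6 and 70.4 CPM and at 89.9, 86.2 and 71.8 CPM. Its groups came within 2 CPM of each other through APC-WT replicate 3, and its log2 change was 0.65 ± 0.21 (edgeR adjusted p = 0.0722). So the ligand Sema3f and the plexin Plxna3 fell, while Nrp2, the co-receptor between them, had a positive change short of the threshold.

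**Figure D3:**
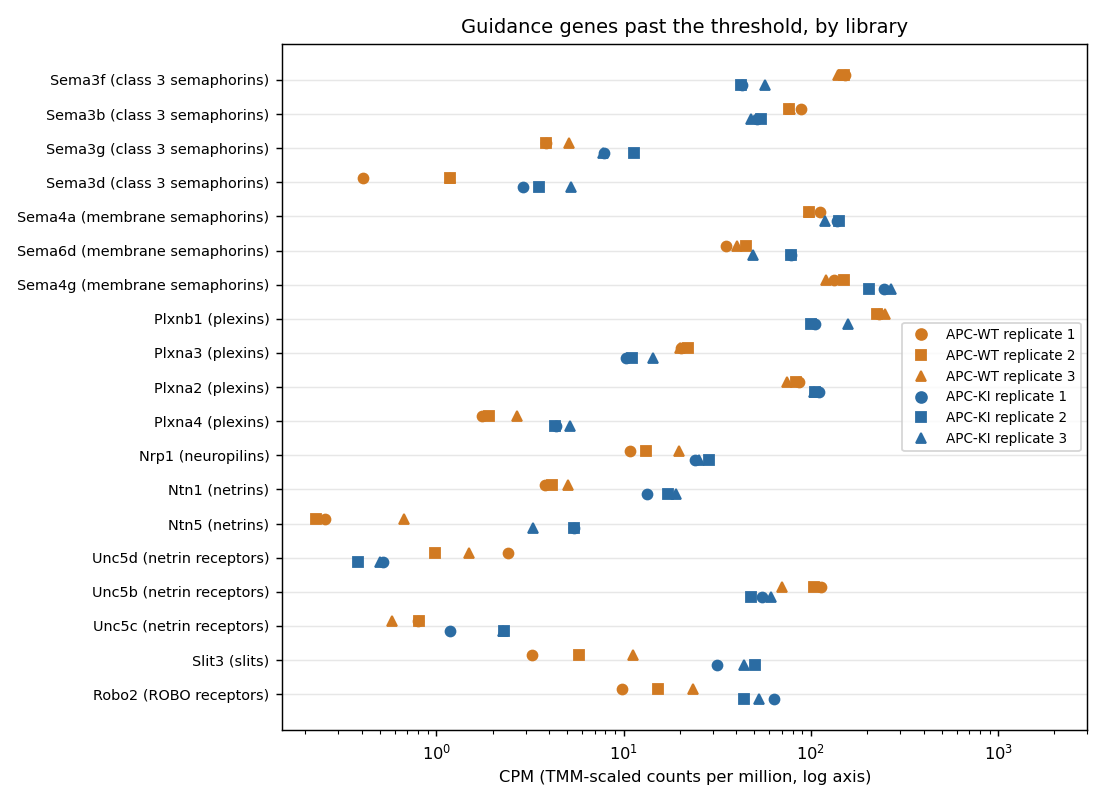
CPM of the 19 guidance genes past the threshold on a log axis, 1 point per library, orange for APC-WT and blue for APC-KI, with a marker shape for each replicate. In every row the 2 colours are separated, as they are for 44.5% of all genes tested. APC-WT replicate 3 lies nearest to the APC-KI points for Slit3, Robo2, Nrp1, Unc5b, Ntn1, Ntn5, Sema3f, Sema3g, Plxna3 and Plxna4. Another APC-WT replicate does so for Unc5c, Unc5d, Plxna2, Plxnb1, Sema3b, Sema4a, Sema4g and Sema6d, and Sema3d is tied.

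Netrins, the laminin-like cues, rose where they changed. Ntn1, the best studied ligand of DCC and UNC5 receptors, stood at 3.81, 4.13 and 5.03 CPM across APC-WT libraries and at 13.4, 17.3 and 19.0 CPM across APC-KI libraries. It was 3.84-fold higher, with a log2 change of 1.94 ± 0.19 (edgeR adjusted p = 0.00421). Ntn5 (ENSMUSG00000070564), a little studied relative, was almost absent from APC-WT tumours at 0.255, 0.229 and 0.673 CPM and reached 5.44, 5.43 and 3.29 CPM across APC-KI libraries, 12.3-fold higher (edgeR adjusted p = 0.00732). The log2 change of Ntn5 was 3.62 ± 0.49 with all libraries and 4.27 without APC-WT replicate 3. In M21, 23.4% of its exon length is shared with Sec1 on the opposite strand, and it is unknown here whether counting used strand. Sec1 itself stood at 0.300 to 0.746 CPM in the 6 libraries. Ntn4, a netrin of basement membranes, stood at 6.51, 5.71 and 7.13 CPM against 6.01, 6.16 and 7.69 CPM, with overlapping groups and a log2 change of 0.04 ± 0.18. Ntn3 was rare and also overlapped between groups, with a log2 change of 0.99 ± 0.63. Per kb of exon Ntn4 was thus the leading netrin of the APC-WT tumours, with 69.5, 64.4 and 58.9% of the family, and had 25.3, 22.9 and 30.3% in APC-KI tumours. There Ntn1 led in APC-KI replicates 2 and 3, with 38.5 and 44.6%, and Ntn5 in APC-KI replicate 1, with 38.7%.

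The netrin receptors did not move together. Unc5b (ENSMUSG00000020099), a dependence receptor, stood at 114, 104 and 70.1 CPM across APC-WT libraries and at 54.9, 48.1 and 61.1 CPM across APC-KI libraries. It was 1.75-fold lower (log2 change −0.81 ± 0.19, edgeR adjusted p = 0.0306), and APC-WT replicate 3 lay close to the APC-KI range. Over the 4 libraries without Y-linked counts its log2 change was −0.36. Unc5d (ENSMUSG00000063626) and Unc5c (ENSMUSG00000059921), both rare, changed in opposite directions. Unc5d was 3.49-fold lower, at 2.41, 0.985 and 1.5 CPM against 0.519, 0.383 and 0.498 CPM (edgeR adjusted p = 0.0233), and Unc5c 2.63-fold higher, at 0.795, 0.809 and 0.580 CPM against 1.19, 2.30 and 2.28 CPM (edgeR adjusted p = 0.0309). Neo1 (ENSMUSG00000032340), which encodes neogenin, a receptor of netrins and of RGM proteins, was 1.16-fold higher without passing, at 104, 91.9 and 96.1 CPM against 110.4, 107 and 122 CPM (edgeR adjusted p = 0.102). Unc5a, at 0.27 on the log2 scale, did not pass. Dcc, the classical netrin receptor, had 1, 3 and 2 counts in APC-WT and 0, 4 and 0 counts in APC-KI libraries and was not tested. Neo1 and Unc5b together made up over 90% of the family RNA per kb in each library. The ratio of Neo1 to Unc5b per kb was 0.656, 0.637 and 0.985 in APC-WT and 1.44, 1.60 and 1.43 in APC-KI tumours (exact two-sided permutation p = 0.1).

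Of the slits Slit3 (ENSMUSG00000056427) alone passed. It stood at 3.25, 5.75 and 11.2 CPM across APC-WT libraries and at 31.7, 50.2 and 43.7 CPM across APC-KI libraries, 6.22-fold higher, with a log2 change of 2.64 ± 0.46 (edgeR adjusted p = 0.0144). The APC-WT libraries differed among themselves by over 3-fold, and all lay below the lowest APC-KI library. Slit2 (ENSMUSG00000031558) stood at 15.5, 13.4 and 10.7 CPM against 13.6, 13.2 and 17.8 CPM, with overlapping groups and a log2 change of 0.17 ± 0.19, and Slit1 stayed under 1 CPM with a change of 0.13 ± 0.45. The ratio of Slit2 to Slit3 per kb was 1.13, 0.555 and 0.227 in APC-WT and 0.102, 0.0627 and 0.0972 in APC-KI tumours (exact two-sided permutation p = 0.1).

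Among the slit receptors Robo2 (ENSMUSG00000052516) rose while Robo1 (ENSMUSG00000022883) had a change of the opposite sign that missed the threshold. Robo2 stood at 9.82, 15.2 and 23.6 CPM across APC-WT libraries and at 63.4, 43.9 and 53.0 CPM across APC-KI libraries, 3.30-fold higher (log2 change 1.72 ± 0.32, edgeR adjusted p = 0.0177). Robo1 stood at 200.4, 193 and 118 CPM and at 51.8, 50.9 and 114 CPM. Its groups were separated only by the small gap between replicate 3 of each group, and the log2 change of −1.24 ± 0.37 did not pass (edgeR adjusted p = 0.0598). It passed with limma-voom (adjusted p = 0.0427), with library totals and without APC-KI replicate 3 (edgeR adjusted p = 0.00988). It also passed with DESeq2 (adjusted p = 0.00301), which called 30.1% of all genes. Robo4, a receptor of endothelial cells, and the rare Robo3 had log2 changes of 0.53 and 1.01, with groups that did not overlap and adjusted p of 0.0883 and 0.0738 in edgeR. Per kb of exon Robo1 exceeded Robo2 by 21, 13.1 and 5.15 times in the APC-WT tumours, and their ratio was 0.841, 1.19 and 2.21 in the APC-KI tumours (exact two-sided permutation p = 0.1). The share of Robo2 in all ROBO RNA was 7.99 ± 4.87% and 33.3 ± 8.44% (SD, n = 3 each).

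**Figure D4:**
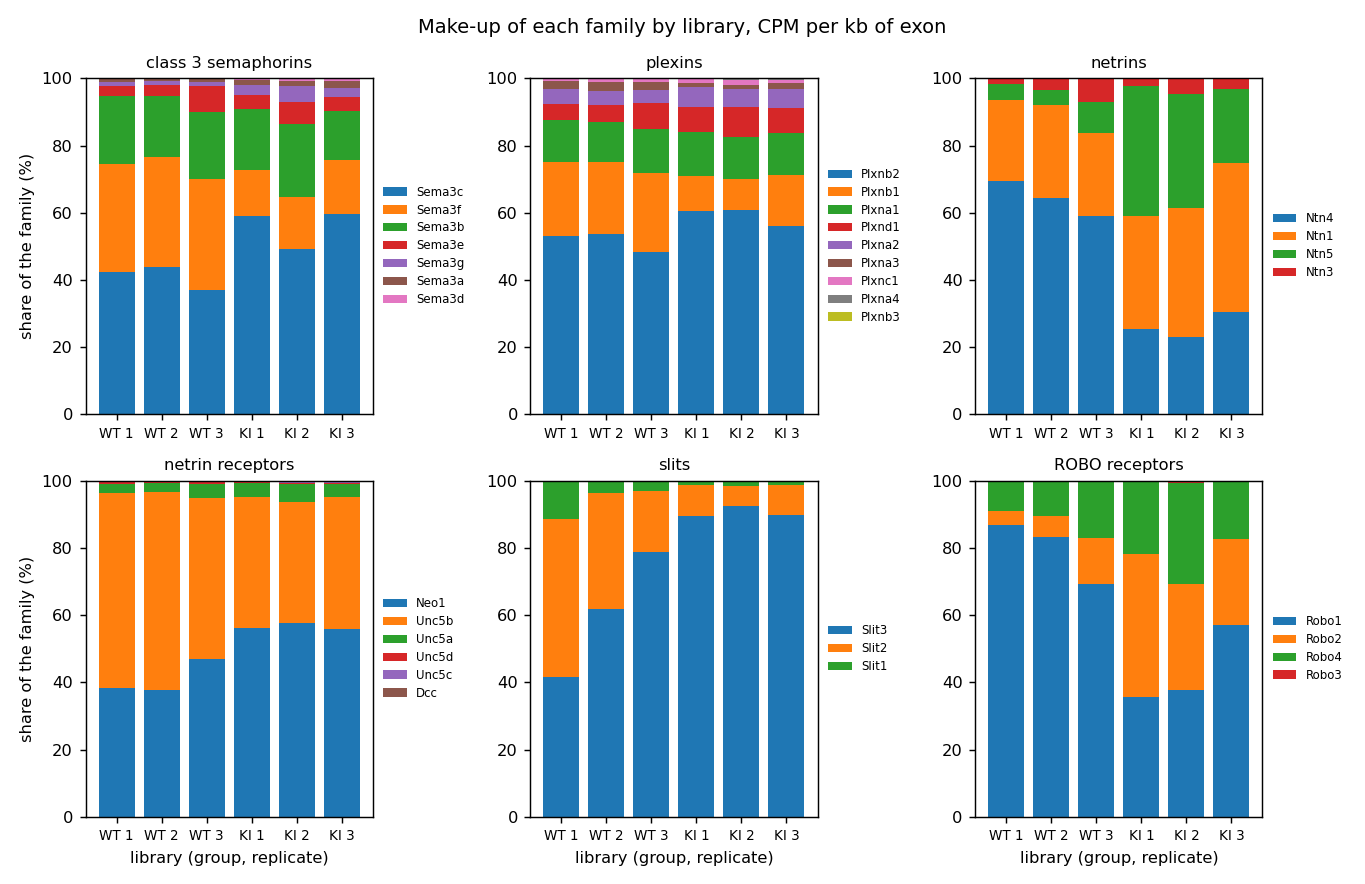
Share of each member in the summed CPM per kb of exon of its family (percent, stacked to 100) for the 6 libraries, WT and KI standing for APC-WT and APC-KI. Ntn4 leads the netrins and Robo1 the ROBO receptors in all APC-WT libraries, and in APC-KI libraries Ntn1, Ntn5 and Robo2 take larger shares.

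Other genes of these pathways were read from 2 lists. Of 27 co-receptors and further ligands 26 were tested, and 4 were higher and 2 lower in APC-KI tumours, 23.1% beside the 20.1% of all genes. The largest change was that of Chl1, an adhesion molecule that joins neuropilin complexes, with a log2 change of 3.03 ± 0.53 (4.0 against 32.7 CPM, edgeR adjusted p = 0.0148). Mst1r, a receptor kinase that can pair with B-type plexins, rose by 0.82, the UNC5 ligand Flrt2 by 1.65 and the integrin chain Itga1 by 0.76 on the log2 scale. The proteoglycan Gpc1, which binds slits, fell by 1.16 and the Wnt co-receptor Ptk7 by 0.71. Of 42 intracellular effectors, all tested, 5 were higher and 7 lower (28.6%), with a median log2 change of −0.07. Farp1, an exchange factor linked to plexin A, Mical3 and Dpysl4, a collapsin response mediator, fell by 0.64, 0.60 and 1.43. Rnd3, the GTPase Rac1 and Mical2 rose by 0.56, 0.46 and 0.59.

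Of the 19 calls 5 passed with every library left out in turn, namely Sema3f, Sema3b, Sema4g, Ntn1 and Ntn5, whose highest edgeR adjusted p were 0.0197, 0.0343, 0.0429, 0.0267 and 0.0346. Slit3 missed the threshold only without APC-WT replicate 2 (edgeR adjusted p = 0.0611), and so did Robo2 there (0.0692) and without APC-KI replicate 1. Without APC-WT replicate 2, 6 of the 19 passed. Among all genes tested, 5.91% were called in that fit, beside 20.1% in the main fit. The others of the 19 lost there were Sema3d, Sema3g, Sema4a, Sema6d, Nrp1, Unc5b, Unc5c and the 4 plexins. Leaving out APC-KI replicate 1 or APC-KI replicate 2 kept 7 of the 19 in each case. The called share of all genes was 6.48% in the former fit and 7.02% in the latter. Each time the 4 plexins, Sema3d, Sema3g, Sema4a, Sema6d, Nrp1, Unc5b and Unc5d were among the calls lost. Fewer calls were lost in the remaining fits with a single library left out. Dropping APC-WT replicate 1 cost Sema3g, Sema6d, Plxna4, Nrp1, Unc5b and Unc5c (12.6% of all genes called). Dropping APC-WT replicate 3 cost Unc5c, Sema4a and Sema6d (19.5%), and dropping APC-KI replicate 3 cost Unc5c and Nrp1 (20%). Over the 4 libraries without Y-linked counts, where APC-WT is a lone library whose spread is taken from the APC-KI group, Sema3f alone passed (log2 change −1.56, edgeR adjusted p = 0.0337). The log2 changes of Ntn1, Ntn5, Slit3 and Robo2 there were 1.72, 2.80, 1.89 and 1.18 (edgeR adjusted p = 0.0537, 0.0596, 0.0601 and 0.0789). With the presence of Y-linked counts as a covariate, the group term likewise rests on APC-WT replicate 3 alone against the APC-KI libraries. Its log2 changes nearly repeat those above and are no second check. They were −1.56, 1.72, 2.81 and 1.90 for Sema3f, Ntn1, Ntn5 and Slit3. Sema3e had a log2 change of −1.06 there, with APC-WT replicate 3 at 57.6 CPM. All 19 had the same sign in each of these fits, whose libraries also took part in the choice of the genes.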

How the data were processed

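RNA was measured in 6 mouse colon tumours, grouped by their titles. Per the labels' protocols, tumours were pinched off the muscle layer, and a TruSeq Stranded mRNA kit was used for the libraries. DESeq2 1.37.6, STAR, cutadapt 2.5 and Trim Galore 0.6.4 are named in the submitters' processing notes, with the builds GRCm38 and mm10. How genes were counted, whether strand was used and the annotation release are not given in the sources used here. Raw counts per Ensembl gene were deposited by the authors. Identifiers were named with GENCODE M21 (52093 of 53700), of which 35 had the same version, so M21 served for names, exon lengths and overlaps, and no gene coordinates are given.

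Genes kept by filterByExpr were scaled with TMM and fitted in R 4.3.3 by the quasi-likelihood functions of edgeR 4.0.16 (robust glmQLFit after estimateDisp, then glmQLFTest), with group as the only term and Benjamini-Hochberg adjustment over all genes. SE is the size of the log2 change divided by the root of the F statistic. CPM per kb divides CPM by the summed exon length of all transcripts. Alternatives were DESeq2 1.42.0, limma-voom (limma 3.58.1), other scalings and filters, a replicate block, single libraries left out, and Y-linked counts as a covariate or as a reason to leave out a library. The steps were tested on simulated data.

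Every member is named. Members past the threshold, and the most abundant of each family, are given by library, and up to 6 genes with the smallest p from each pathway list. Members and lists were chosen with earlier results of these data known. Nothing in the labels says whether replicates came from separate animals, so p values measure the spread between these libraries. Replicates of a group were distinct libraries, with a chi-square per gene of 40.1 to 114 between them.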

Additional observations from a re-analysis of the deposited data

How the results depend on the processing

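No guidance gene that passed changed sign under any alternative. The 13 higher and 6 lower members came out as 16 and 9 with DESeq2. That method called 30.1% of all genes, beside 20.1% in the main fit. The members were 13 and 7 with limma-voom, and 13 and 6 with RLE or upper-quartile factors, without a filter and with a stricter filter. With library totals only, where the median over all genes shifted by −0.116 on the log2 scale, they were 11 and 8, so that 57.9% instead of 68.4% of these calls were higher; over all genes the share was 41.0% (1978 higher, 2844 lower) instead of 62.1%. Nrp1 and Sema4a were lost; the neuropilins then had 0 calls, the ROBO receptors 2 and the effectors 13 lower. DESeq2 gave 2 calls in neuropilins, 3 in ROBO receptors and 6 in membrane semaphorins, 8 higher co-receptors, 11 lower effectors and 2388 lower genes, and limma-voom gave 2 in ROBO receptors.

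Deviations of same-numbered libraries from their group means had correlations of 0.0348, −0.068 and −0.182, and those of differently numbered libraries −0.145 to 0.198. With 3 libraries a group this check cannot exclude a pairing by number. With the replicate block 7 members were higher and 5 lower, with 1 call in netrin receptors, 0 in neuropilins and 2 in plexins, 0 lower co-receptors, 1 higher and 1 lower effector, and 1195 higher and 465 lower genes.

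With Y-linked counts as a covariate 3 of 48 members were higher and 2 lower, beside 2.17% of all genes (220 higher and 195 lower). The member calls were 2 netrins, 1 membrane and 2 class 3 semaphorins, with 0 in the other families, the co-receptors and the effectors. Over the libraries without Y-linked counts 0 members were higher and 1 lower, the latter Sema3f, and all other families and the effectors had 0 calls, 1 co-receptor was higher, and 178 genes were higher and 152 lower. The fit with the covariate and the fit without those libraries both set APC-WT replicate 3 alone against the APC-KI libraries. Their calls cannot be compared with the 39.6% of members and 20.1% of all genes in the main fit.

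With single libraries left out, 3 to 14 members were higher and 2 to 8 lower. Calls ranged from 2 to 3 in netrins, 0 to 2 in netrin receptors, neuropilins and ROBO receptors, 0 to 5 in plexins, 1 to 4 in membrane and 2 to 4 in class 3 semaphorins, and 0 to 1 in slits. Co-receptors had 1 to 8 higher and 0 to 2 lower, effectors 0 to 5 higher and 0 to 7 lower, and all genes 788 to 2542 higher and 300 to 1595 lower. Dcc had too few counts to be tested, and Sema5b, Slit1, Robo3 and Plxna4os1 stood under 1 CPM in every library.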
